A study of Homo sapiens with 23 samples.

Results

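Collagen chains are the gene products that wind around each other to form the collagens, the main structural proteins of the extracellular matrix. The chains described here are the genes whose symbol in the array annotation has the form COL, number, A, number, and that have at least 1 probe set assigned to no other gene. This rule found 43 of the 19775 genes on the array, with 112 probe sets among them. A collagen gene without such a probe set is left out. COL17A1 is not among the 43, so nothing is said of it here. Where a chain had several probe sets, the 1 with the brightest mean log2 signal across the arrays (the main probe set) stands for it, and a chain that stayed under 100 signal units in the mean of every group is called dim.

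RNA was measured on 23 Affymetrix U133 Plus 2.0 expression arrays of MCF10A-ER-Src cells, a line of immortalized, non-transformed human mammary epithelial cells. Every sample carries the ER-Src transgene, in which the kinase Src is joined to the part of the estrogen receptor that binds hormone. Tamoxifen (TAM, 1 µM, 4-hydroxytamoxifen) therefore activates Src and transforms the cells, and ethanol (EtOH) was the vehicle. All cells were also transfected with 25 nM of an siRNA pool, either a non-targeting pool (siNEG) or a pool against the transcription factor STAT3 (siSTAT3), 48 h before treatment. With treatments of 4 h and 24 h this gave 8 groups (siNEG EtOH, siNEG TAM, siSTAT3 EtOH and siSTAT3 TAM at each time). There were 3 arrays in 7 of them and 2 (replicates 2 and 3) in siSTAT3 TAM 24 h, of which another array was not analysed here. The methods call the replicates biological, but nothing states that they came from separate cultures, so p-values measure the spread between these samples. All data come from 1 line and 1 siRNA pool per target.

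The arrays were alike in quality, with median signals of 73.5 to 85.3 units and ACTB 3' to 5' signal ratios of 1.21 to 1.44. The targeted gene behaved as labelled: the mean signal of STAT3 was 4022 to 6119 units in the siNEG groups and 330.9 to 424.8 units in the siSTAT3 groups. All 7 measured epithelial markers, among them KRT5, KRT14 and CDH1, were over 100 units. Of 10 fibroblast markers, DCN, FAP, POSTN and COL1A1 were over 100 units, whereas COL1A2, COL3A1, LUM, PDGFRA, PDGFRB and THY1 were dim. COL1A1, COL1A2 and COL3A1 are themselves collagen chains.

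Collagens differ in what they build. Fibrillar chains (types I, II, III, V, XI, XXIV and XXVII) make the fibrils of connective tissue. Type IV chains make the sheet-like network of basement membranes, on which mammary epithelial cells rest, and their genes lie in head-to-head pairs that share an upstream region. Type VI chains make beaded filaments that link cells to the matrix, type VII makes the anchoring fibrils under stratified epithelia, types VIII and X make hexagonal networks, the FACIT chains (such as types XII and XVI) attach to the surface of fibrils, and types XIII, XXIII and XXV span the cell membrane. Most work as trimers of defined partners, so a chain can be limited by the partner with which it assembles.

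Of the 43 chains, 16 reached 100 units in at least 1 group. They were the fibrillar chains COL1A1, COL5A2 and COL27A1, the basement membrane chains COL4A1, COL4A2, COL4A4, COL4A5 and COL4A6, the beaded filament chains COL6A1 and COL6A3, the anchoring fibril chain COL7A1, the hexagonal network chain COL8A1, the FACIT chains COL12A1, COL16A1 and COL22A1, and the transmembrane chain COL13A1. COL4A4 was a borderline member, at 103 ± 9 units (SD, n = 3) in siNEG TAM 24 h and under 100 units in the mean of every other group. Just outside the limit lay COL26A1, with a highest group mean of 87.0 units, and COL20A1, with 81.6 units.

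The other 27 chains were dim, with signals of 0.656 to 155 units on single arrays, and none of them passed the test in any of the 12 comparisons. Among them were the fibrillar chains COL1A2, COL3A1, COL5A1, COL5A3, COL2A1, COL11A1, COL11A2 and COL24A1, the basement membrane chain COL4A3 and the beaded filament chains COL6A2, COL6A5 and COL6A6. The dim chains also included COL8A2 and COL10A1 of the hexagonal networks and 6 FACIT chains, which were COL9A1, COL9A2, COL9A3, COL14A1, COL19A1 and COL21A1, beside COL20A1. COL15A1 and COL18A1, whose C-terminal fragments inhibit vessel growth, and COL23A1, COL25A1, COL26A1 and COL28A1 complete the list. COL1A2, which joins COL1A1 in type I collagen, had signals of 3.32 to 66.6 units. COL6A2, which joins COL6A1 and COL6A3 in type VI collagen, had signals of 30.2 to 106 units, and COL5A1, the usual partner of COL5A2, had signals of 5.95 to 42.0 units. A low array signal can come from the probes as well as from the RNA, and signals of different probe sets are not compared here.

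A chain is said to rise or fall where its main probe set passed an adjusted p of 0.05 in limma, a linear model with moderated tests, fitted to all 23 arrays and all 54675 probe sets. After 24 h of TAM in siNEG cells, 5 chains rose and 2 fell. COL6A3, COL13A1, COL27A1, COL4A1 and COL4A2 rose, and COL4A6 and COL8A1 fell. These 7 of 43 chains (16.3%) stand beside 11.3% of all probe sets that passed in this comparison, and the median log2 difference of the 43 chains was -0.08 against -0.04 over all probe sets. With the spread estimated from the arrays of these 2 groups alone, COL6A3, COL27A1, COL4A6 and COL8A1 passed, and COL13A1, COL4A1 and COL4A2 did not. After 4 h of TAM in siNEG cells only COL1A1 passed, and it fell, at a background of 2.35% of probe sets, while 4 of 43 chains had an unadjusted p under 0.05. The COL1A1 call was lost with the spread from those 2 groups alone.

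In siSTAT3 cells, 4 chains rose after 24 h of TAM (COL6A3, COL13A1, COL4A1 and COL8A1) and none fell, at a background of 1.87% of probe sets. The median log2 difference of the 43 chains was 0.11, and that of all probe sets was -0.02. None of the 4 passed with the spread estimated from the 5 arrays of these groups alone, where the lowest adjusted p was 0.259. After 4 h of TAM in siSTAT3 cells no chain passed in limma, at a background of 0.582%, and 4 had an unadjusted p under 0.05. The comparisons of siSTAT3 with siNEG cells and those of TAM with EtOH share arrays, so their calls are not independent of each other.

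**Figure D1:**
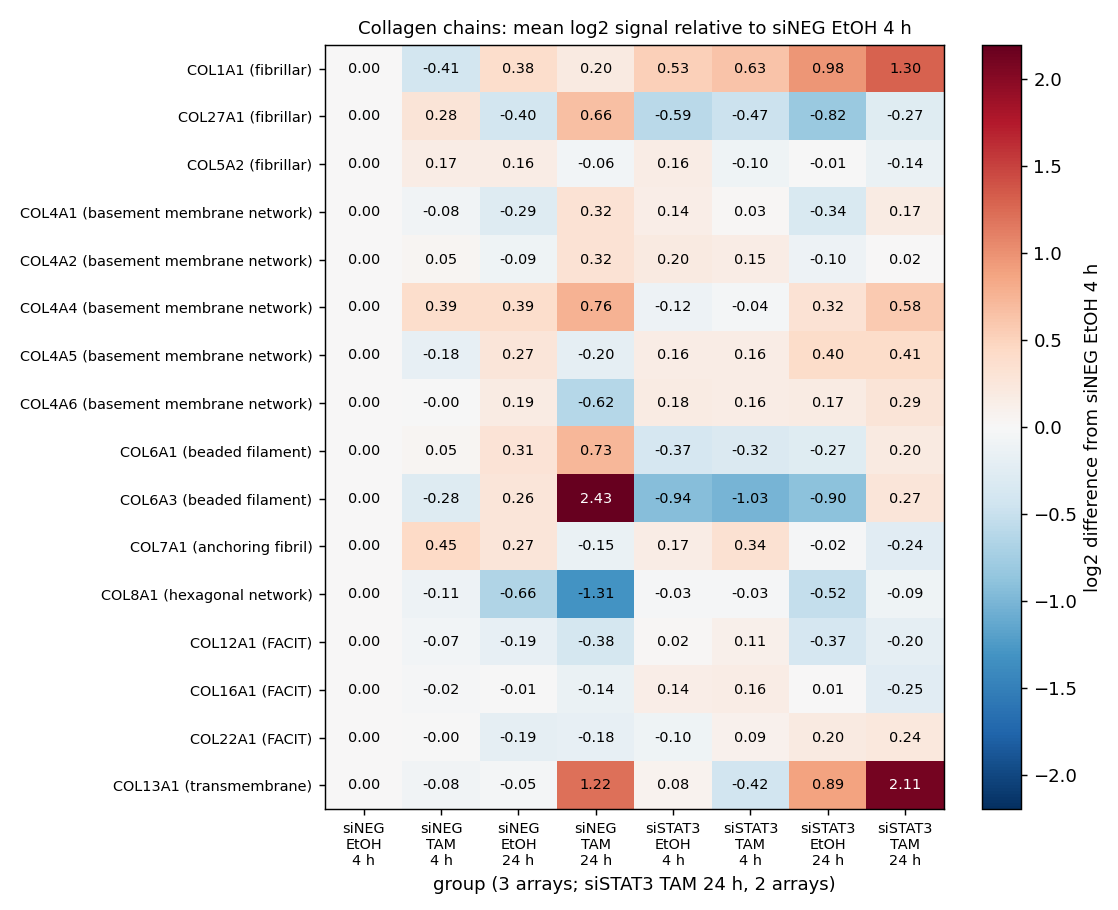
Mean log2 signal of the 16 chains over 100 units in each of the 8 groups, given as the difference from the siNEG EtOH 4 h mean of the same chain (colour and printed value, log2 scale). COL6A3 stands out at 2.43 in siNEG TAM 24 h and COL13A1 at 2.11 in siSTAT3 TAM 24 h, while COL8A1 has its lowest value, -1.31, in siNEG TAM 24 h.

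COL4A1 and COL4A2 together form the most widespread type IV collagen, which is present in nearly all basement membranes. In the RefSeq annotation of GRCh38.p14 they lie head to head on chromosome 13, COL4A1 at chr13:110148963-110307157 on the minus strand and COL4A2 at chr13:110307284-110513209 on the plus strand, with 126 bases between their start sites. The whole gap is shown because both genes share it and both rose with TAM at 24 h in siNEG cells. It is chr13:110307158-110307283, read on the plus strand, with matches to 2 promoter motifs in capitals, a CCAAT box (CCAAT) and a GC box (GGGCGG).
COL4A1 and COL4A2: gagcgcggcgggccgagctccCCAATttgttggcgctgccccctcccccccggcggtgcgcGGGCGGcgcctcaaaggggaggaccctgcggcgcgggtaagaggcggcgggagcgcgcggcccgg

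The COL4A1 signal was 3032, 2645 and 2471 units on the siNEG EtOH 24 h arrays and 4009, 4075 and 4293 units with TAM. In siSTAT3 cells it was 2415, 2799 and 2622 units with EtOH and 3446 and 4032 units with TAM at 24 h. With either siRNA, every 24 h TAM array was above every 24 h EtOH array. The log2 difference was 0.61 (SE 0.09, adjusted p = 0.000225), or 1.52-fold, in siNEG cells and 0.52 (SE 0.10, adjusted p = 0.0147) in siSTAT3 cells. The difference between these responses was -0.09, with a 95% interval of -0.39 to 0.20. The call in siSTAT3 cells was lost without siSTAT3 TAM 24 h replicate 3 (log2 difference 0.40, adjusted p = 0.259) and without siSTAT3 EtOH 24 h replicate 1 (0.46, adjusted p = 0.067). A dimmer COL4A1 probe set, 211981_at, also rose in siNEG cells, by 0.82 (adjusted p = 0.0015), but did not pass in siSTAT3 cells (log2 difference 0.43, adjusted p = 0.297). The difference between its responses was -0.39, with a 95% interval of -0.88 to 0.10.

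COL4A2 moved like its neighbour in siNEG cells. Its signal was 2296, 2037 and 2211 units with EtOH and 2889, 3024 and 2783 units with TAM at 24 h, with no overlap, and the log2 difference was 0.41 (SE 0.08, adjusted p = 0.00299), or 1.33-fold. In siSTAT3 cells the values were 2179, 2217 and 2086 units with EtOH and 2247 and 2450 units with TAM, and the difference was 0.12 (SE 0.09, adjusted p = 0.71), which did not pass. The difference between the responses, -0.29 with a 95% interval of -0.56 to -0.03, did not pass the adjusted test either (adjusted p = 0.288). With TAM at 24 h, COL4A2 was lower in siSTAT3 than in siNEG cells by 0.30 on the log2 scale (adjusted p = 0.0432), a call that was lost with any of the 5 arrays of those groups left out (adjusted p = 0.0569 to 0.265). Its other probe set, 211966_at, did not pass with TAM at 24 h in siNEG cells (log2 difference 0.27, adjusted p = 0.259) or in siSTAT3 cells (0.31, adjusted p = 0.439), and its responses differed by 0.04, with a 95% interval of -0.39 to 0.47, so the smaller response of the main probe set in siSTAT3 cells was not seen in it.

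Without TAM, both genes were lower at 24 h than at 4 h in siSTAT3 cells. COL4A1 fell by 0.48 on the log2 scale (adjusted p = 0.00239) and COL4A2 fell by 0.31 (adjusted p = 0.0262), while in siNEG cells the differences were -0.29 (adjusted p = 0.0674) and -0.09 (adjusted p = 0.609). Whether the change over time differed between the siRNAs was not tested. The second COL4A1 probe set, 211981_at, passed in siNEG cells (-0.65, adjusted p = 0.0122) and not in siSTAT3 cells (-0.38, adjusted p = 0.153), the opposite of the main one. The COL4A2 call over time was lost with any of the 3 siSTAT3 EtOH 24 h arrays left out, and without siSTAT3 EtOH 4 h replicate 1 or 3 (adjusted p = 0.0548 to 0.111). In all, 6 of 43 chains passed over time in siSTAT3 cells (2 rose and 4 fell), at a background of 10.1% of probe sets, and 2 in siNEG cells, at a background of 9.07%. None of these passed with the spread estimated only from the arrays of the 2 groups compared.

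COL4A5 and COL4A6 form a second head-to-head pair, on the X chromosome, and their chains make a type IV network that is found under some epithelia. COL4A6 lies at chrX:108155614-108439458 on the minus strand and COL4A5 at chrX:108439838-108697545 on the plus strand, with 379 bases between COL4A5 and the nearer start site of COL4A6. The 250 bases upstream of that COL4A6 start, chrX:108439459-108439708 read on the minus strand, are shown because COL4A6 fell in a comparison in which COL4A5 did not pass. Capitals mark 3 CCAAT boxes on either strand.
COL4A6: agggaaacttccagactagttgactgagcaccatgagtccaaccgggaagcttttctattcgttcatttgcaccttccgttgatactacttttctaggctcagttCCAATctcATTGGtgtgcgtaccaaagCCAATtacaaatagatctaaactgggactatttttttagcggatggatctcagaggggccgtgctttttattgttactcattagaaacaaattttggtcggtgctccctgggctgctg

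COL4A6 had signals of 2503, 2375 and 2678 units with EtOH and 1375, 1397 and 1550 units with TAM at 24 h in siNEG cells. In siSTAT3 cells it had 2493, 2460 and 2521 units with EtOH and 2702 and 2693 units with TAM. The 3 siNEG TAM 24 h arrays were lower than every other array. COL4A6 fell by 0.81 on the log2 scale in siNEG cells (SE 0.07, adjusted p = 8.24e-07), or 1.75-fold, and differed by 0.11 (SE 0.08, adjusted p = 0.676) in siSTAT3 cells. The responses differed by 0.92 (SE 0.11, adjusted p = 6.92e-05). With TAM at 24 h, COL4A6 was higher in siSTAT3 than in siNEG cells by 0.91 (adjusted p = 6.8e-07), and with EtOH the 24 h difference was -0.01 (adjusted p = 0.978).

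The other COL4A6 probe sets were dimmer. The probe set 211473_s_at had a difference of -0.80 in siNEG cells at 24 h that did not pass. The probe set 210945_at, at 51.9 to 226 units, fell by 1.23 on the log2 scale after 4 h of TAM in siNEG cells (adjusted p = 0.0111), where the main probe set differed by 0.00 (adjusted p = 0.996). With TAM at 4 h, 210945_at was higher in siSTAT3 than in siNEG cells by 1.35 (adjusted p = 0.00215) and the main probe set differed by 0.17 (adjusted p = 0.253), so the probe sets of COL4A6 disagree at 4 h.

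COL4A5 had signals of 3943, 4431 and 3894 units with EtOH and 3032, 2402 and 3529 units with TAM at 24 h in siNEG cells. The 2 groups did not overlap, but the arrays were more spread than those of COL4A6, and the log2 difference of -0.47 (SE 0.16) had an adjusted p of 0.0689. In siSTAT3 cells the values were 4082, 4545 and 4765 units with EtOH and 4142 and 4879 units with TAM, and the difference was 0.01 (SE 0.18, adjusted p = 0.991). The difference between the responses was 0.48, with a 95% interval of -0.02 to 0.98 (adjusted p = 0.376). With TAM at 24 h, COL4A5 was higher in siSTAT3 than in siNEG cells by 0.61 (SE 0.18, adjusted p = 0.0313). This call was lost without siNEG TAM 24 h replicate 1 or 2 or without either siSTAT3 TAM 24 h array (adjusted p = 0.0542 to 0.272).

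The last pair, COL4A3 and COL4A4 on chromosome 2, makes a network known from the kidney, lung and inner ear, and is also arranged head to head. COL4A3 was dim, and the COL4A4 differences did not pass in any comparison.

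**Figure D2:**
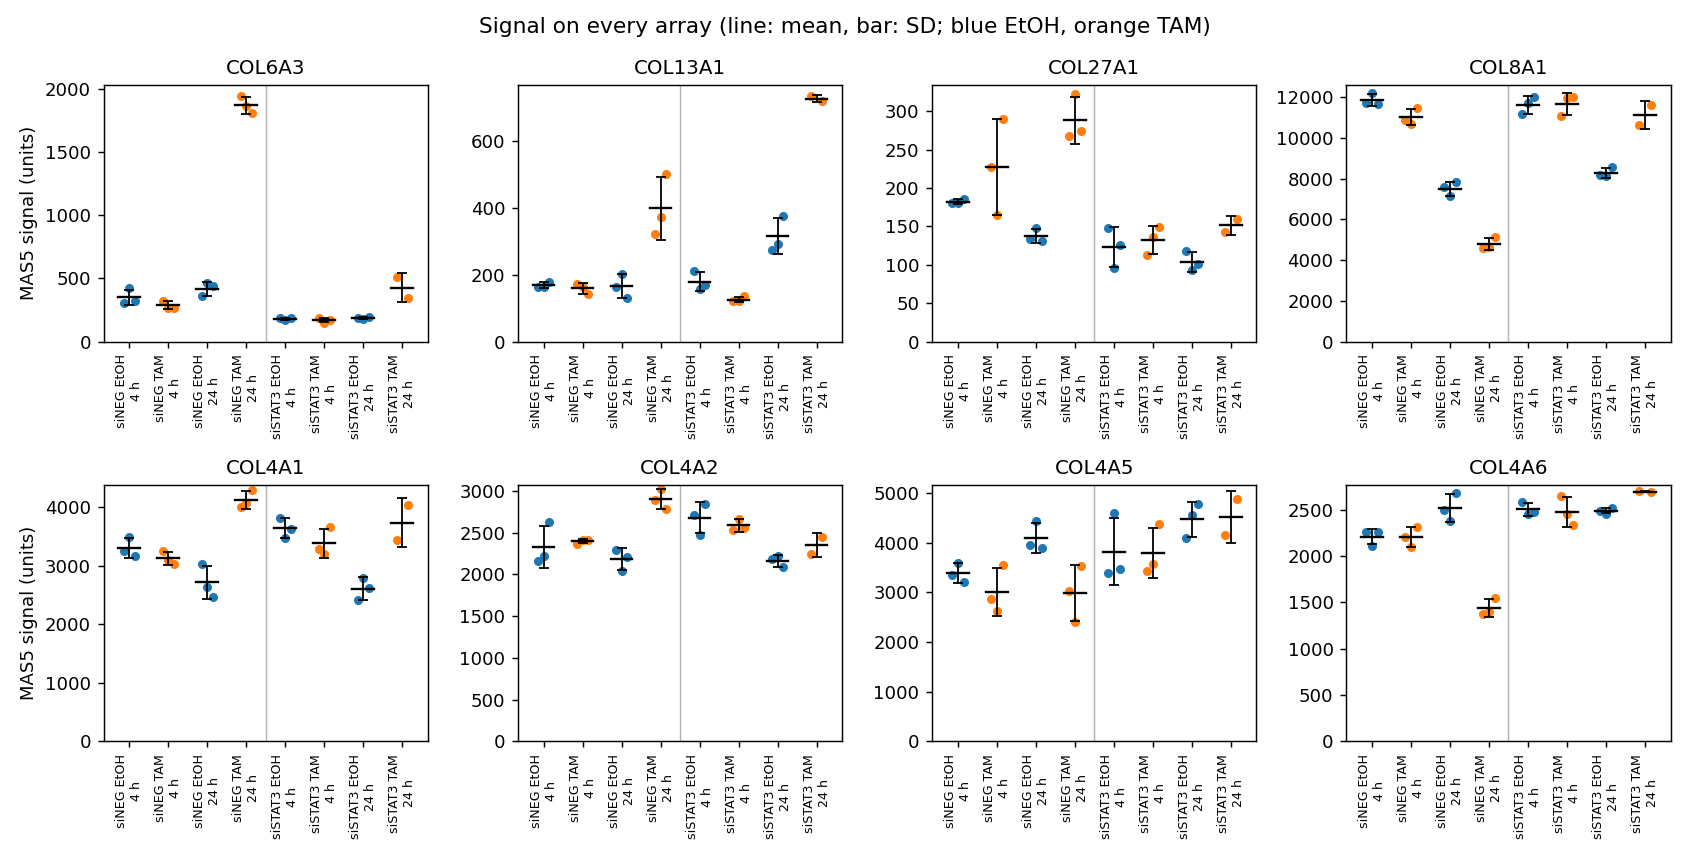
Signal (MAS5 units, linear axis from 0) of 8 chains on each of the 23 arrays, by group, with the group mean as a line and the SD as a bar; blue is EtOH, orange is TAM, and the grey line parts siNEG from siSTAT3. In siNEG TAM 24 h, COL6A3 lies at 1810 to 1942 units, above all other arrays, and COL4A6 and COL8A1 lie below all other arrays.

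COL6A3 encodes the long chain of type VI collagen, from which the fragment endotrophin is cut. It lies at chr2:237324018-237414164 on the minus strand. The 250 bases upstream of its start, chr2:237414165-237414414 on the minus strand, are shown because COL6A3 changed more with TAM than any other chain over 100 units. The window holds none of the 4 motifs searched, and so no capitals.
COL6A3: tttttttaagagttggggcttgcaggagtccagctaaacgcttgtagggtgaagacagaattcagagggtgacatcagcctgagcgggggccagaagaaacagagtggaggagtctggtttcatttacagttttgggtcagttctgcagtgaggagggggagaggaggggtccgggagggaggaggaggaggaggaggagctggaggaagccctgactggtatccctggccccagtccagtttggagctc

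COL6A3 had signals of 358, 460 and 436 units in siNEG cells with EtOH at 24 h and 1942, 1863 and 1810 units with TAM. In siSTAT3 cells it had 184, 180 and 193 units with EtOH and 508 and 346 units with TAM. The TAM arrays were above the EtOH arrays with either siRNA, and the siNEG arrays were above the siSTAT3 arrays with either treatment. The rise with TAM was 2.17 on the log2 scale in siNEG cells (SE 0.15, adjusted p = 2.41e-08), or 4.5-fold, and 1.18 in siSTAT3 cells (SE 0.17, adjusted p = 0.000786), or 2.26-fold. The response in siSTAT3 cells was smaller by 0.99 on the log2 scale (difference -0.99, SE 0.22, adjusted p = 0.0154). The 2 siSTAT3 TAM arrays lay far apart, and without replicate 3 the difference between the responses was -0.72 and did not pass (adjusted p = 0.138).

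At 4 h, COL6A3 did not pass with TAM. Its signals were 307, 422 and 322 units with EtOH and 323, 267 and 269.7 units with TAM in siNEG cells (adjusted p = 0.488). In siSTAT3 cells they were 186, 169 and 187 units with EtOH and 188, 150.2 and 175 units with TAM (adjusted p = 0.939). All 6 siSTAT3 arrays were below all 6 siNEG arrays at 4 h. COL6A3 was lower in siSTAT3 than in siNEG cells in every one of the 4 comparisons of the siRNAs: the log2 differences were -0.94 (adjusted p = 0.00136) and -0.75 (adjusted p = 0.0042) at 4 h with EtOH and TAM, and -1.16 (adjusted p = 0.000274) and -2.16 (adjusted p = 8.58e-08) at 24 h. COL6A3 has 1 probe set on the array, so no other probe set bears on these values.

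COL6A1, a partner of COL6A3, had signals of 325, 405 and 412 units with EtOH and 481, 517 and 526 units with TAM at 24 h in siNEG cells. In siSTAT3 cells it had 231, 218 and 319 units with EtOH and 354 and 349.7 units with TAM. The groups did not overlap in either case, yet the differences of 0.42 (SE 0.20, adjusted p = 0.21) and 0.48 (SE 0.22, adjusted p = 0.39) did not pass. COL6A1 was also lower in siSTAT3 cells in the mean of each treatment and time, by log2 differences of -0.37 to -0.58, none of which passed (adjusted p = 0.151 to 0.432). The remaining 7 COL6A1 probe sets had signals of 3.6 to 101 units.

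COL13A1 encodes a collagen that sits in the cell membrane at sites of adhesion. It lies at chr10:69801906-69959144 on the plus strand. COL27A1, a fibrillar chain described further on, lies at chr9:114154098-114312511 on the plus strand. The 250 bases upstream of COL13A1, chr10:69801656-69801905 on the plus strand, are printed beside the COL27A1 window of the RefSeq table, chr9:114155287-114155536 on the plus strand, which precedes a start site inside the annotated gene and not its outermost one. These windows are shown because both chains rose with TAM in siNEG cells, while with TAM at 24 h COL13A1 was higher and COL27A1 lower in siSTAT3 than in siNEG cells. Capitals mark 2 GC boxes in the COL27A1 window; the COL13A1 window holds no match.
COL13A1: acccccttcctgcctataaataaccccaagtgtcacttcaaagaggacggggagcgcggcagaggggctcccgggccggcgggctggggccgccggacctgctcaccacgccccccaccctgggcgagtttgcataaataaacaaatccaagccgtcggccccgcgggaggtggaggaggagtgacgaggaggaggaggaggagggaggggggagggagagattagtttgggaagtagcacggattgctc
COL27A1: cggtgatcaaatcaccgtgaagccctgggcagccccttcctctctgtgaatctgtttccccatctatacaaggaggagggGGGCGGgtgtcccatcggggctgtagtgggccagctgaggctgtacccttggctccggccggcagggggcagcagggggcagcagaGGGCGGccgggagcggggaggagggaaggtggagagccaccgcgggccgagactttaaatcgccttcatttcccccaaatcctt

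COL13A1 had signals of 164, 202 and 131 units with EtOH and 321, 371 and 502 units with TAM at 24 h in siNEG cells. In siSTAT3 cells it had 275, 292 and 376 units with EtOH and 734 and 719 units with TAM. With either siRNA the TAM arrays lay above the EtOH arrays, and with either treatment the siSTAT3 arrays lay above the siNEG arrays. The rise with TAM was 1.26 (SE 0.18, adjusted p = 8.74e-05), or 2.40-fold, in siNEG cells and 1.22 (SE 0.20, adjusted p = 0.00246), or 2.33-fold, in siSTAT3 cells. The responses differed by -0.04, with a 95% interval of -0.60 to 0.52. COL13A1 was higher in siSTAT3 than in siNEG cells at 24 h, by 0.94 with EtOH (SE 0.18, adjusted p = 0.00796) and by 0.89 with TAM (SE 0.20, adjusted p = 0.0053). The call with EtOH was lost without siNEG EtOH 24 h replicate 3 (0.78, adjusted p = 0.0519) and without siSTAT3 EtOH 24 h replicate 3 (0.80, adjusted p = 0.0508).

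At 4 h all COL13A1 signals lay between 120 and 211 units, and no comparison passed. With EtOH it rose from 4 to 24 h in siSTAT3 cells, by 0.81 (adjusted p = 0.00603), and differed by -0.05 in siNEG cells (adjusted p = 0.928). The other COL13A1 probe sets, at 46.9 to 172 units, did not pass in any comparison. At 24 h with EtOH, 211809_x_at differed between siSTAT3 and siNEG cells by -0.49 (interval -1.22 to 0.24). With TAM it differed by -0.01 (interval -0.82 to 0.80). The differences of the main probe set lay above both intervals. Those of 208535_x_at were -0.08 and 0.03. The probe sets of COL13A1 thus disagree on the difference between the siRNAs, and which of them follows its RNA was not tested. TAM minus EtOH at 24 h was positive for each with either siRNA.

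Among the fibrillar chains, COL27A1, a chain of cartilage and developing tissues, rose with TAM and COL1A1, the main chain of type I collagen, was higher in siSTAT3 cells. COL27A1 had signals of 134, 148 and 132 units with EtOH and 267, 323 and 274 units with TAM at 24 h in siNEG cells. In siSTAT3 cells it had 118, 92.8 and 101 units with EtOH and 142 and 160.1 units with TAM. The rise in siNEG cells was 1.06 (SE 0.18, adjusted p = 0.000772), or 2.08-fold. In siSTAT3 cells the difference of 0.55 (SE 0.21, adjusted p = 0.258) did not pass, although the groups did not overlap, and the difference between the responses was -0.51, with a 95% interval of -1.10 to 0.07 (adjusted p = 0.437).

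COL27A1 was lower in siSTAT3 than in siNEG cells with TAM, by log2 differences of -0.75 at 4 h (SE 0.18, adjusted p = 0.0188) and -0.93 at 24 h (SE 0.21, adjusted p = 0.00558). The 4 h signals with TAM were 228, 164 and 290.4 units in siNEG cells and 113, 136 and 149 units in siSTAT3 cells. The call at 4 h was lost without siNEG TAM 4 h replicate 1 or 3 or siSTAT3 TAM 4 h replicate 1 (adjusted p = 0.0635 to 0.101), and the call at 24 h without siSTAT3 TAM 24 h replicate 2 (adjusted p = 0.0611). With EtOH the differences of -0.59 at 4 h (adjusted p = 0.111) and -0.42 at 24 h (adjusted p = 0.393) did not pass. COL27A1 has 5 probe sets, and only the main one reached 100 units in a group mean.

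COL1A1 lies at chr17:50184101-50201631. In siNEG cells its signals were 372, 386 and 384 units with EtOH and 281, 264 and 319 units with TAM at 4 h, and 464, 515 and 507 units with EtOH and 434, 456 and 418 units with TAM at 24 h. In siSTAT3 cells they were 537, 509 and 607 units with EtOH and 556, 586 and 622 units with TAM at 4 h, and 741, 776 and 732 units with EtOH and 939 and 936 units with TAM at 24 h. At each time, every siSTAT3 array was above every siNEG array. The log2 differences between siSTAT3 and siNEG cells were 0.53 (adjusted p = 0.00168) and 1.03 (adjusted p = 6.13e-07) at 4 h with EtOH and TAM, and 0.60 (adjusted p = 0.000725) and 1.10 (adjusted p = 3.44e-07) at 24 h.

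TAM lowered COL1A1 in siNEG cells at 4 h, by a log2 difference of -0.41 (SE 0.09, adjusted p = 0.0148), a call that was lost without siNEG EtOH 4 h replicate 2 or 3 or siNEG TAM 4 h replicate 1 or 2 (adjusted p = 0.0574 to 0.0854). At 24 h the differences with TAM were -0.18 (adjusted p = 0.219) in siNEG and 0.32 (adjusted p = 0.121) in siSTAT3 cells. Neither passed, but the difference between them did (0.51, SE 0.13, adjusted p = 0.0338). It was lost without replicate 2 or 3 of siNEG EtOH 24 h, 1 or 3 of siNEG TAM 24 h, 1 or 3 of siSTAT3 EtOH 24 h, or either array of siSTAT3 TAM 24 h (adjusted p = 0.0659 to 0.115). With EtOH, COL1A1 rose from 4 to 24 h in siNEG (0.38, adjusted p = 0.0091) and in siSTAT3 cells (0.45, adjusted p = 0.00223).

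The COL1A1 values rest on 1 probe set. A dimmer probe set of the gene that passed 100 units, 217430_x_at, with signals of 62.2 to 258 units, differed between siSTAT3 and siNEG cells by 0.06 with TAM and 0.02 with EtOH at 24 h, and neither passed. Another 3 had no group mean over 100 units. The probe sets of COL1A1 thus disagree, and nothing here shows which of them follows the RNA of the gene.

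The other fibrillar chain over 100 units was COL5A2, which regulates the width of type I fibrils. Its signals were 246.8 to 351.2 units, and its main probe set passed in no comparison. The log2 difference with TAM at 24 h was -0.22 (adjusted p = 0.294) in siNEG cells and -0.13 (adjusted p = 0.795) in siSTAT3 cells. Its second probe set, 221730_at, was lower in siSTAT3 than in siNEG cells with TAM at 4 h, at mean signals of 89.07 and 139.1 units (log2 difference -0.65, adjusted p = 0.0347).

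COL8A1 forms hexagonal networks in vessel walls and in the basement membrane of the corneal endothelium, alone or with COL8A2, which was dim here. It lies at chr3:99638594-99799217. At 4 h its signals were 11710, 12220 and 11680 units with EtOH and 10880, 10710 and 11480 units with TAM in siNEG cells, and 11170, 11700 and 12010 units with EtOH and 11070, 11950 and 11990 units with TAM in siSTAT3 cells. No comparison passed at 4 h. At 24 h they were 7579, 7133 and 7819 units with EtOH and 4608, 4627 and 5123 units with TAM in siNEG cells. In siSTAT3 cells at 24 h they were 8180, 8136 and 8571 units with EtOH and 10630 and 11630 units with TAM.

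The 24 h groups did not overlap with either siRNA, and the order of EtOH and TAM was opposite between them. COL8A1 fell with TAM in siNEG cells (-0.65, SE 0.07, adjusted p = 6.14e-06), a 1.57-fold fall, and rose with TAM in siSTAT3 cells (0.42, SE 0.08, adjusted p = 0.00896), a 1.34-fold rise. The responses differed by 1.07 (SE 0.11, adjusted p = 8.48e-06). The rise in siSTAT3 cells was lost without siSTAT3 TAM 24 h replicate 3 (0.36, adjusted p = 0.17). With TAM at 24 h the signal was higher in siSTAT3 than in siNEG cells by 1.22 (SE 0.08, adjusted p = 1.14e-08), or 2.33-fold, and with EtOH at 24 h by 0.14 (adjusted p = 0.467), which did not pass.

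With EtOH, COL8A1 fell from 4 to 24 h by 0.66 on the log2 scale in siNEG cells (adjusted p = 1.39e-05) and by 0.49 in siSTAT3 cells (adjusted p = 0.000225). The siSTAT3 TAM 24 h group, at 11130 ± 713 units (SD, n = 2), was thus near the 4 h groups, and the siNEG TAM 24 h group, at 4786 ± 292 units (SD, n = 3), was the lowest of the 8. A second COL8A1 probe set, 214587_at, moved the same way: it fell with TAM in siNEG cells at 24 h by 0.74 on the log2 scale (adjusted p = 0.000946), and its responses differed between the siRNAs by 0.93 (adjusted p = 0.00989). Its difference of 0.20 with TAM in siSTAT3 cells did not pass. The remaining COL8A1 probe set, 221152_at, did not pass with TAM at 24 h in siNEG cells (-0.19, adjusted p = 0.535). Its mean signals there were 45.62 units with TAM and 52.47 units with EtOH. The difference between its responses did not pass either (0.42, adjusted p = 0.442). With TAM at 24 h, 221152_at was higher in siSTAT3 than in siNEG cells by 0.67 (adjusted p = 0.0149).

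**Figure D3:**
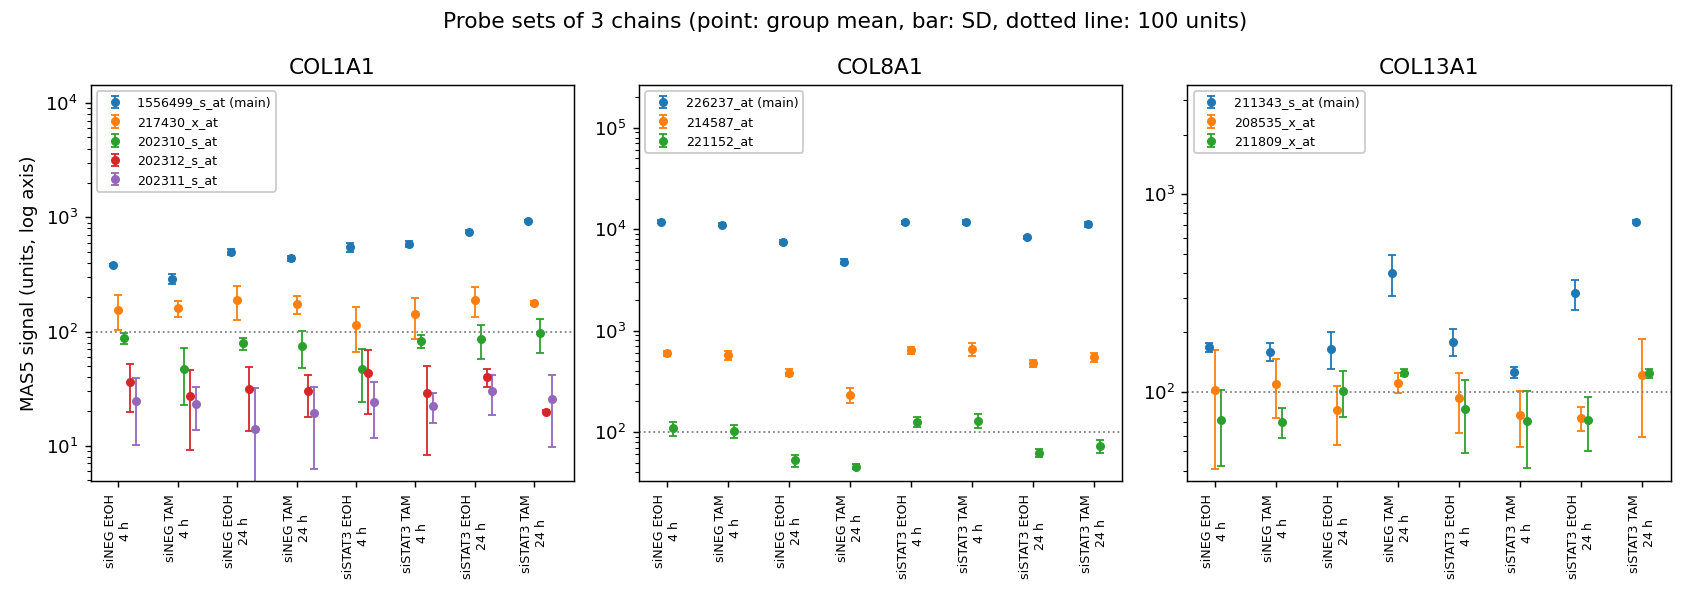
Mean signal (MAS5 units, log axis) and SD of every probe set of COL1A1, COL8A1 and COL13A1 in the 8 groups, with the 100 unit limit as a dotted line. The main COL8A1 probe set and 214587_at are both lowest in siNEG TAM 24 h. The main probe sets of COL1A1 and COL13A1 differed between siSTAT3 and siNEG cells at 24 h, whereas the differences of 217430_x_at of COL1A1 and the dimmer probe sets of COL13A1 did not pass. TAM minus EtOH at 24 h was positive for each COL13A1 probe set with either siRNA.

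The remaining chains over 100 units were less responsive. COL12A1, which coats type I fibrils in tissues under tension, had signals of 2855, 3093 and 3370 units with EtOH and 2721, 2550 and 2835 units with TAM at 24 h in siNEG cells, and 2634, 2494 and 3109 units with EtOH and 3353 and 2796 units with TAM in siSTAT3 cells. The differences of -0.20 (adjusted p = 0.294) and 0.16 (adjusted p = 0.672) did not pass, and neither did the difference between them, 0.36 with a 95% interval of 0.03 to 0.70 (adjusted p = 0.296). A dimmer but more even COL12A1 probe set, 231766_s_at, with signals of 620 to 903 units, did pass: it fell with TAM by 0.27 on the log2 scale in siNEG cells (adjusted p = 0.0158), rose by 0.34 in siSTAT3 cells (adjusted p = 0.0301), and the responses differed by 0.61 (adjusted p = 0.00167). It was lower in siSTAT3 than in siNEG cells with EtOH at 24 h, at mean signals of 636.9 and 850.0 units (-0.42, adjusted p = 0.00279), and did not pass with TAM, at 805.3 and 705.5 units (0.19, adjusted p = 0.139). This probe set was singled out after its values were seen. The COL12A1 probe sets 231879_at and 233109_at, which also reached 100 units, did not pass with TAM at 24 h with either siRNA. Their differences had the same signs as those of 231766_s_at. The differences between their responses, 0.24 (adjusted p = 0.706) and 1.15 (adjusted p = 0.353), did not pass.

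COL12A1 also fell with time in EtOH in siSTAT3 cells by its main probe set (-0.39, adjusted p = 0.0266), a call that was lost without siSTAT3 EtOH 4 h replicate 1 or 2 or siSTAT3 EtOH 24 h replicate 1 or 2 (adjusted p = 0.0899 to 0.128). COL7A1, at 88.4 to 235 units, COL16A1, at 229.9 to 428 units, and COL22A1, at 66.0 to 208 units, passed in no comparison. For COL7A1, which stratified epithelia make to anchor their basement membrane, the difference with TAM in siNEG cells was 0.45 at 4 h (adjusted p = 0.554) and -0.42 at 24 h (adjusted p = 0.402), with SE of 0.26 each.

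The difference between the TAM responses of siSTAT3 and siNEG cells thus passed for 4 of the 43 chains at 24 h (9.30%), at a background of 4.06% of probe sets. It was positive for COL8A1, COL4A6 and COL1A1 and negative for COL6A3. With the spread estimated from the 24 h arrays alone it passed for COL8A1 and COL4A6, and the adjusted p was 0.0821 for COL6A3 and 0.0948 for COL1A1. At 4 h it passed for none in limma, at a background of 0.399%, and 5 chains had an unadjusted p under 0.05. Between siSTAT3 and siNEG cells, 2 chains passed with EtOH at 4 h (background 3.18%), 3 with EtOH at 24 h (1.96%), 3 with TAM at 4 h (6.77%) and 8 with TAM at 24 h (12.0%). Of those 8, COL1A1, COL4A5, COL4A6, COL8A1 and COL13A1 were higher and COL4A2, COL6A3 and COL27A1 were lower in siSTAT3 cells. With the spread estimated only from the arrays of the 2 groups compared, COL1A1, COL6A3 and COL8A1 passed with TAM at 24 h, COL1A1 passed with TAM at 4 h, and no chain passed with EtOH at either time.

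**Figure D4:**
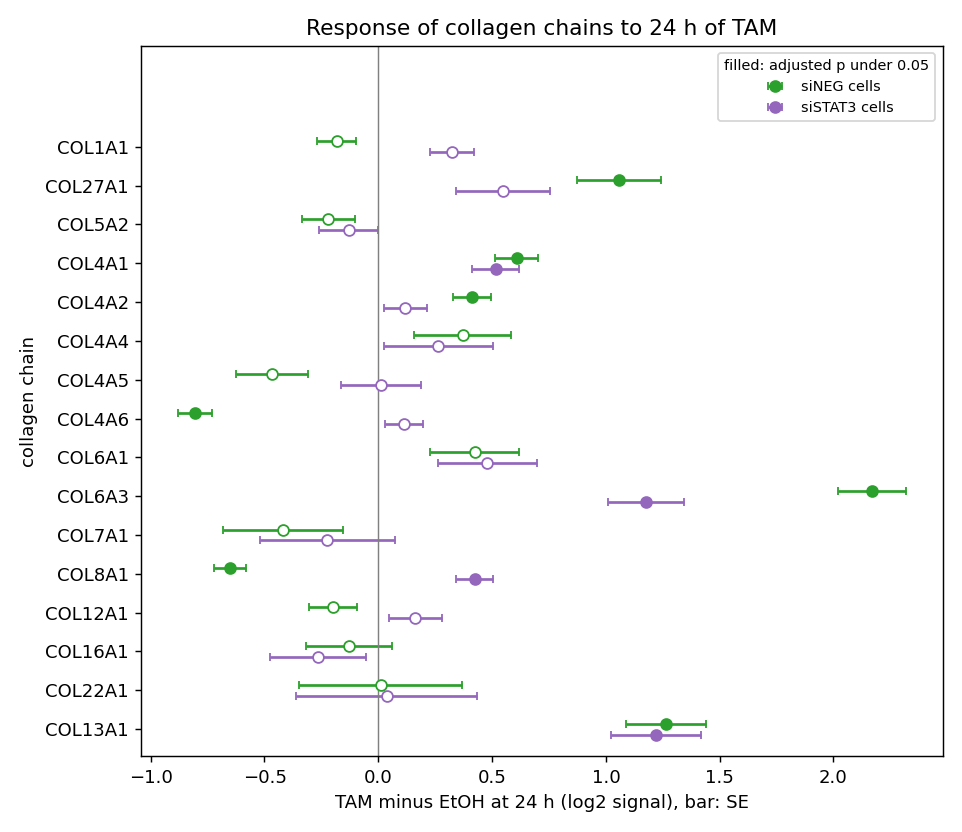
TAM minus EtOH at 24 h (log2 signal) for the 16 chains over 100 units in siNEG (green) and siSTAT3 cells (purple), with bars for the SE and filled points where the adjusted p was under 0.05. COL13A1 and COL4A1 have nearly the same value with either siRNA, COL6A3 drops from 2.17 to 1.18, and COL8A1 changes from -0.65 to 0.42.

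Collagens need other proteins to fold, to be trimmed and cross-linked, to be bound by cells and to be broken down, and 5 lists of such genes were examined, with the 3 members of each that changed most with TAM at 24 h in siNEG cells named. Of 17 measured genes for folding and hydroxylation, 1 rose and 2 fell. P4HA1, a subunit of the prolyl hydroxylase that stabilizes the helix, rose by 0.55 (adjusted p = 0.00102). P3H2, which hydroxylates type IV chains, differed by -0.99 (adjusted p = 0.0012), and PLOD3, a lysyl hydroxylase, by -0.30 (adjusted p = 0.00693). The median of the list was 0.06, and none of its members passed with TAM at 24 h in siSTAT3 cells. The difference between the responses at 24 h, siSTAT3 minus siNEG, passed only for P3H2, as positive.

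Of 16 genes for processing and cross-linking, 4 rose and 3 fell in siNEG cells at 24 h, with a median of 0.25. The cross-linking enzymes TGM2 (3.20, adjusted p = 7.67e-08), LOX (1.89, adjusted p = 2.84e-10) and LOXL2 (1.36, adjusted p = 8.26e-07) rose, as did BMP1, which cleaves procollagens, and SPARC, LOXL1 and LOXL3 fell. In siSTAT3 cells none of the 16 passed with TAM at 24 h. The responses differed between the siRNAs for TGM2, LOX and LOXL2, which were smaller in siSTAT3 cells, and for SPARC.

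Of 10 collagen receptors, 2 rose and 1 fell, with a median of 0.33. ITGA2, which pairs with beta 1 integrin to bind collagen, rose by 1.32 (adjusted p = 2.83e-07) and ITGA1 by 0.40 (adjusted p = 0.0333), and ITGA10 had a difference of -0.53 (adjusted p = 0.0262) with overlapping arrays. Of 14 genes for degradation, 3 rose and 1 fell, with a median of 0.38. The protease MMP3 rose by 2.24 (adjusted p = 3.27e-05), from a group mean of 54.2 to 245 units, the cathepsin CTSB rose by 1.56 (adjusted p = 9.32e-10), the protease inhibitor TIMP3 had a difference of -1.60 (adjusted p = 9.58e-07), and MMP14, the membrane-bound collagenase, rose as well. In siSTAT3 cells 1 receptor, ITGA2, and 5 genes for degradation rose (MMP9, MMP14, FAP, CTSB and TIMP2). The difference between the responses, siSTAT3 minus siNEG, passed for no receptor. Among the genes for degradation it passed as negative for MMP14, CTSB and MMP3 and as positive for TIMP3 and TIMP2. Mean CTSB went from 6866 to 9358 units in siSTAT3 cells, against 7204 to 21270 units in siNEG cells. Mean MMP3 went from 57.0 to 40.8 units in siSTAT3 cells.

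Of 14 partners of type IV and VII collagens in basement membranes and hemidesmosomes, 3 rose and 2 fell in siNEG cells at 24 h, with a median of 0.05. LAMB3 (1.28, adjusted p = 1.84e-07) and LAMB1 (0.80, adjusted p = 4.12e-05), chains of laminins, rose as did the integrin ITGB4, while the proteoglycan HSPG2 (-0.71, adjusted p = 0.0236) and the linker DST fell. In siSTAT3 cells LAMB3 alone passed. The difference between the responses, siSTAT3 minus siNEG, passed only for LAMB1, as negative. The background for these counts is the 11.3% and 1.87% of probe sets given above.

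In siNEG cells at 24 h, the summed signals of the marker lists did not all move the same way with TAM. The summed signal of the 10 fibroblast markers was 7807 to 8146 units on the siNEG EtOH 24 h arrays and 10160 to 11590 units with TAM, and 4861 to 4951 units and 8167 to 8352 units in siSTAT3 cells. DCN, a small proteoglycan that binds collagen fibrils, and POSTN, a matrix protein, were the members that rose with TAM in siNEG cells, and POSTN and FAP in siSTAT3 cells. The 6 dim fibroblast markers, which include the receptors PDGFRA and PDGFRB, stayed at or under 72.1 units on every array. The epithelial sum was 69190 to 75950 units with EtOH and 62990 to 67820 units with TAM at 24 h in siNEG cells, where CDH1 and EPCAM fell and ITGB4 and LAMB3 rose, and 66240 to 70530 and 70290 to 82640 units in siSTAT3 cells. The endothelial sum of 4 genes was 457 to 533 units with EtOH and 301 to 329 units with TAM at 24 h in siNEG cells. PECAM1, at 144.6 to 463.7 units over the arrays, fell there, from a mean of 421.8 to 190.3 units. KDR was at 19.1 to 121.2 units, and CDH5 and VWF were at or under 44.7 units on every array. The immune sum of 3 genes was 841 to 1040 and 768 to 830 units, and none of its members passed. CD14 was at 361.2 to 898.5 units, CD3E at 20.5 to 105.4 units and PTPRC at or under 56.1 units. The part of these shifts in the collagen values was not tested. In bulk RNA, a change in the number of cells of a type and a change in RNA per cell cannot be told apart.

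The upstream windows were searched on both strands for 4 motifs, in the 250 bases before each start site that RefSeq gives for GRCh38.p14. They were the STAT consensus, TTCNNNGAA, and the AP-1 site, TGANTCA, beside the GC box, GGGCGG, and the CCAAT box. Windows were available for 31 of the 43 chains, of which 11 were over 100 units. TTCNNNGAA was present in 1 of these 11 genes, COL7A1, with 2 matches, and TGANTCA in none. Over all 35116 windows of the same length these motifs were present in 6.57% each. GGGCGG was present in 7 and CCAAT in 4 of the 11 genes, beside 42.6% and 32.0% of all windows. A gene was counted where any of its windows held a match, whereas the shares are of single windows, so they are unlike measures. The windows of COL4A1 and COL4A2 overlap, so a match in the gap between them counts for both genes. A match is a description of letters in the window, and its absence says only that these letters are not in it.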

How the data were processed

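The authors hybridized RNA from MCF10A-ER-Src cells to Affymetrix U133 Plus 2.0 arrays, background corrected, normalized and summarised them with MAS5 and deposited 1 linear intensity value per probe set and array, here called signal in units. The version and scaling target are not given in the sources used here. The array annotation gave 1 gene symbol for 41097 probe sets, several for 1801 and none for 11777, and the latter 2 kinds were not used for chains.

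Signals were log2 transformed with nothing added, and 1 mean per group, from the sample labels, was fitted to 23 arrays with limma 3.58.1 (R 4.3.3; 15 residual and 1.27 prior degrees of freedom). There were 12 comparisons: TAM minus EtOH (4), siSTAT3 minus siNEG (4), 24 h minus 4 h with EtOH (2), and the TAM effect in siSTAT3 minus that in siNEG cells (2, the interactions). Adjusted p is the Benjamini-Hochberg value over 54675 probe sets of 1 comparison. Between arrays of a group the absolute log2 difference averaged 0.184 to 0.262 over probe sets, and precision is limited by how few arrays a group has. The fit was tested on simulated data.

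All 43 chains found by the rule are listed. Single arrays are given for chains of at least 100 units called with an absolute log2 difference of at least 1 in a TAM comparison or interaction, with head-to-head neighbours and partner chains. Those of COL1A1, COL12A1 and the type IV chains were added after their values were seen. Of each related list the 3 called members with the largest difference are named. The members and the 18 lists (9 collagen families, 5 related lists, 4 marker lists) were chosen with earlier results of these data known. Alternatives were quantile normalization, log2 of signal plus 50, a filter at 100 units, a variance trend, only the groups compared, a replicate block, the study's limits, any probe set of a gene, and leaving out each array.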

Additional observations from a re-analysis of the deposited data

Results flagged for a closer look

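For 4 chains the response to 24 h of TAM differed between siSTAT3 and siNEG cells by the interaction term of the limma model. The log2 difference of the responses, siSTAT3 minus siNEG, was 1.07 for COL8A1, 0.92 for COL4A6, -0.99 for COL6A3 and 0.51 for COL1A1. COL8A1 fell in siNEG cells and rose in siSTAT3 cells, COL4A6 fell in siNEG cells and did not pass in siSTAT3 cells, COL6A3 rose with either siRNA, and COL1A1 passed with neither. The siSTAT3 side of each rests on 2 TAM arrays. The values for COL8A1 and COL4A6 passed in all 17 alternatives, each of which used the main probe set. The value for COL6A3 failed without siSTAT3 TAM 24 h replicate 3 (-0.72, adjusted p = 0.138) and in the fit of only the groups compared (adjusted p = 0.0821), and the value for COL1A1 failed without any 1 of 8 of the arrays behind it (adjusted p up to 0.115).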

How the results depend on the processing

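Of 40 calls of single chains, none changed direction under the alternatives run for single chains, all of which used the main probe set. Of their 488 values, 416 stayed past the threshold. Other probe sets of a gene entered only as counts, and some differed in sign from the main one, as given above for COL1A1, COL13A1 and COL4A6. 10 calls passed under all alternatives run for them: COL6A3, COL4A6, COL27A1 and COL8A1 with TAM at 24 h in siNEG cells, COL1A1 (4 and 24 h), COL6A3 and COL8A1 (24 h) between the siRNAs with TAM, and the COL4A6 and COL8A1 interactions at 24 h. Fits of only the groups compared have fewer residual degrees of freedom and gave fewer calls: with TAM in siNEG cells 0 at 4 h and 4 at 24 h, with TAM in siSTAT3 cells 0 at 24 h, between the siRNAs 0 with EtOH at 4 h, 0 with EtOH at 24 h, 1 with TAM at 4 h and 3 with TAM at 24 h, over time 0 in siNEG and 0 in siSTAT3 cells, and 2 in the 24 h interaction. The study's limits (p under 1e-04 and absolute log2 over 0.5), which 21 of the 40 calls pass, gave 0 for TAM in siNEG cells at 4 h, 2 for TAM in siSTAT3 cells at 24 h, 1 and 4 between the siRNAs with TAM at 4 and 24 h, 1 and 0 over time in siNEG and siSTAT3 cells, and 2 in the 24 h interaction. Counting any probe set of a gene gave 2 for TAM in siNEG cells at 4 h, 5 between the siRNAs with TAM at 4 h and 5 over time in siNEG cells. The filter at 100 units gave 4 over time in siNEG cells and 1 in the 4 h interaction. Leaving out 1 array gave 0 to 1 calls for TAM in siNEG cells at 4 h and 7 to 8 at 24 h, 0 to 0 and 2 to 4 in siSTAT3 cells, 2 to 3 and 2 to 3 between the siRNAs with EtOH, 2 to 3 and 5 to 7 with TAM, 2 to 3 and 4 to 5 over time, and 0 to 0 and 2 to 4 in the interactions at 4 and 24 h.

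Of 77 pairs of arrays with the same replicate number, 11 had a correlation of deviations over 0.1. The median was 0.0276 against -0.0172 for other pairs. How many other pairs passed 0.1 was not counted, so these values cannot decide whether replicate numbers pair the arrays. The fit with a replicate block gave 7 calls for TAM in siNEG cells at 24 h, 4 for TAM in siSTAT3 cells at 24 h, 4 in the 24 h interaction and 7 between the siRNAs with TAM at 24 h, where COL4A2 no longer passed (-0.31, adjusted p = 0.0569). It changed no other count. Dim probe sets limit what can be said of the 27 chains under 100 units.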
